A study of Homo sapiens with 30 samples.

Results

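The HOXA genes and MEIS1 were followed on 30 Affymetrix HG U133 Plus 2.0 arrays of LOUCY, an established ETP-ALL cell line. The members were every probe set annotated to HOXA3, HOXA4, HOXA5, HOXA6, HOXA7, HOXA9, HOXA10, HOXA11, HOXA13 or MEIS1. Of these 10 genes, 3 had an annotated probe set in the tables used here, which gave 4 probe sets out of 54613 tested. HOXA9 and HOXA10 had 1 named probe set each and MEIS1 had 2. Of 54675 probe sets in the deposited data, 11777 were not in the platform annotation. HOXA9 and HOXA10 were named only from the study's annotation, so further probe sets of these genes may have gone unnamed. The HOXA9 probe set also lists the HOXA10-HOXA9 readthrough transcript. The other 7 HOXA genes are not analysed here. For MEIS1, the probe set with the higher mean stands for the gene, and the other is called the dimmer one.

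All cells were LOUCY, which carries the SET-NUP214 fusion and a rearrangement near MEF2C that activates the gene. Constructs were induced by doxycycline (dox), and each condition had 3 arrays. LOUCY_MEF2C-BFP cells, a bulk, virally transduced and sorted line with inducible MEF2C, were grown with and without dox under 3 culture conditions: OP9-DL1 stroma, OP9-GFP stroma or medium alone. OP9 is a mouse stromal line, and OP9-DL1 carries the Notch ligand DL1. A line with inducible ICN, the active intracellular part of NOTCH1, and a line with both MEF2C and ICN were grown with and without dox, with no stroma named in their labels. The sources used here do not give how the ICN constructs were made or introduced. The labels number the replicates but do not state whether they were grown independently, so the p-values below reflect only the spread between these arrays. The labels also do not give an empty-vector line, so the effect of dox alone cannot be told apart from that of the induced gene.

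HOXA genes encode homeodomain transcription factors that set positional identity in the embryo and are active in blood stem and progenitor cells, where they are normally switched off as cells mature. HOXA9 and HOXA10 are posterior members of the cluster and are kept high in leukemias with MLL rearrangements or SET-NUP214. MEIS1 is a TALE homeodomain protein that binds DNA together with HOXA9 and PBX proteins and cooperates with HOXA9 in myeloid leukemia.

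Because HOXA9 and HOXA10 had similar profiles over the conditions, the promoters that RefSeq gives for the measured members are shown (GRCh38.p14, 300 bases reaching just past the start site, 5' to 3'). HOXA9 lies at chr7:27165488-27165787, minus strand, the 2 start sites of HOXA10 at chr7:27179812-27180111, minus strand and chr7:27174271-27174570, minus strand, and MEIS1 at chr2:66434875-66435174, plus strand. Capitals mark matches on either strand to CCAAT or to TTTATNG, a motif bound by posterior HOX proteins.
HOXA9: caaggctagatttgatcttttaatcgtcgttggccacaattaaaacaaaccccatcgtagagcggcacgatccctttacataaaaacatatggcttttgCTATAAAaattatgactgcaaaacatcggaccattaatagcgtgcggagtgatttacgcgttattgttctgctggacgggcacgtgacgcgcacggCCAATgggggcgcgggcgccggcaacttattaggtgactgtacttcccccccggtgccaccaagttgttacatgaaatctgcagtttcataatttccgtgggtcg
HOXA10 first start site: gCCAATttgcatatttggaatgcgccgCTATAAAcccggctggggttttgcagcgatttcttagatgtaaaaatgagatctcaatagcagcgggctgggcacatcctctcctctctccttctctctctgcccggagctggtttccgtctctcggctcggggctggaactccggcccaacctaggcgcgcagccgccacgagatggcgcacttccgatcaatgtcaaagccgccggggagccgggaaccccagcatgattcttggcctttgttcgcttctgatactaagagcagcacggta
HOXA10 second start site: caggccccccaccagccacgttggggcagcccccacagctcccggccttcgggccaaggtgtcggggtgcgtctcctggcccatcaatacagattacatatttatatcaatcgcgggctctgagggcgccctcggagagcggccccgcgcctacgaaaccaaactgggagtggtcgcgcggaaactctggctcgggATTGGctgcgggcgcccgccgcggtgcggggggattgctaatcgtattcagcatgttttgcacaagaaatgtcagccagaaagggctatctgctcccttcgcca
MEIS1: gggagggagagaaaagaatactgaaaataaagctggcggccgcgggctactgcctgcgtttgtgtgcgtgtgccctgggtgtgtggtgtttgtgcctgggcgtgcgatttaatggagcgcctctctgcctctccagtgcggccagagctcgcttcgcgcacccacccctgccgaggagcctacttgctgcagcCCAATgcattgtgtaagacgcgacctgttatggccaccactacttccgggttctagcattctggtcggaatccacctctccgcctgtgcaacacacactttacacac
CCAAT was found in all 4 windows, and in 34.6% of 35116 RefSeq promoters of this length. TTTATNG was found in HOXA9 and in the first HOXA10 promoter as CTATAAA, which overlaps the letters of a TATA box, and in 9.73% of all promoters. The RBPJ core TGGGAA (24.0% of all promoters), the MEIS motif TGACAG (15.8%) and the MEF2 motif (2.99%) were not found in these 4 windows. Their distal elements are not covered by these windows.

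HOXA9 and HOXA10 were bright on every array, and MEIS1 was dim. The HOXA9 log2 expression value ranged between 10.60 and 11.39 over the 30 arrays, with a mean of 11.05. HOXA10 ranged between 9.75 and 10.94, with a mean of 10.40. MEIS1 had a mean of 3.04 and its dimmer probe set a mean of 2.64, both below the array medians of 4.76 to 4.84. Arrays of a condition correlated at 0.990 to 0.998 over all probe sets. Of 7 listed markers of LOUCY and ETP-ALL, LYL1 lay between 8.16 and 10.30 and HHEX between 10.02 and 11.01. CD7, LMO2, MEF2C and CD3E also lay well above the array medians on every array. CD34 lay between 4.97 and 5.72, close to those medians. All 4 probe sets differed among the 10 conditions by limma's F test, with adjusted p = 6.7e-09 for HOXA9, 1.1e-12 for HOXA10, 0.0016 for MEIS1 and 0.0092 for its dimmer probe set, while 47.8% of all probe sets passed. The condition means of HOXA9 spanned 0.68 log2 units and those of HOXA10 1.05, against a spread within conditions of 0.05 for each (pooled SD).

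**Figure D1:**
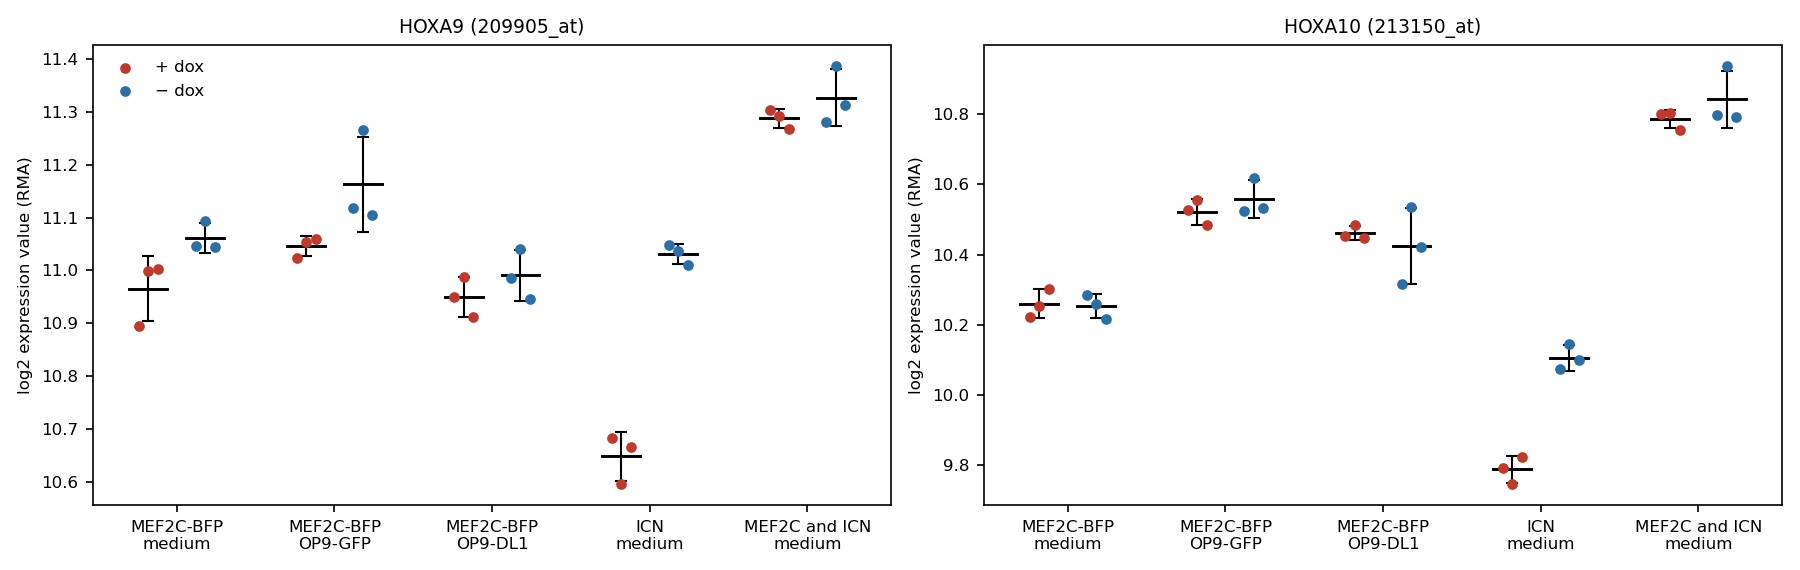
log2 expression of HOXA9 (left) and HOXA10 (right) on each of 30 arrays, with dox left of without dox for each line and culture. Bars are the mean and SD of 3 arrays. The ICN line with dox is lowest and the MEF2C and ICN line highest for both genes.

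Both HOXA genes fell on induction of ICN. HOXA9 was at 10.68, 10.60 and 10.67 in the ICN line with dox, against 11.05, 11.04 and 11.01 without dox. The dox arrays were all lower, and no value overlapped. The log2 fold change was -0.38 (SE 0.06, 95% interval -0.50 to -0.27, adjusted p = 1.3e-05), which is 0.767-fold. HOXA10 was at 9.79, 9.75 and 9.82 with dox, against 10.07, 10.15 and 10.10 without dox, again without overlap. Its log2 fold change was -0.32 (SE 0.06, 95% interval -0.44 to -0.20, adjusted p = 3.3e-04), or 0.802-fold. MEIS1 was dim, at 2.58 ± 0.12 with dox and 2.73 ± 0.14 without dox (SD, n = 3), with an interval of -0.97 to 0.66 for the difference. That interval draws on 1 spread shared by all 10 conditions (pooled SD 0.53 for MEIS1), so it does not reflect the spread of the ICN line alone. In this comparison 12.4% of all probe sets passed. As a check of the induction, HEY1, a Notch target, was higher with dox by 4.96 log2 units (adjusted p = 3.7e-21). Of the 2 targeted genes, MEF2C and NOTCH1, 0 rose and 1 fell here, and the same counts held on joint induction. NOTCH1, by its brighter probe set, was thus not called higher in either. The sources used here do not give whether that probe set covers the ICN construct.

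When MEF2C and ICN were induced together, neither HOXA gene passed the test. HOXA9 was at 11.30, 11.29 and 11.27 in the MEF2C and ICN line with dox, against 11.28, 11.39 and 11.31 without dox. The log2 fold change was -0.04 (95% interval -0.15 to 0.07, adjusted p = 0.74). HOXA10 was at 10.80, 10.80 and 10.76 with dox, against 10.80, 10.94 and 10.79 without dox. Its log2 fold change was -0.06 (95% interval -0.18 to 0.06, adjusted p = 0.63), where 13.3% of all probe sets passed. The induction effect of the MEF2C and ICN line minus that of the ICN line was 0.34 for HOXA9 (SE 0.08, 95% interval 0.18 to 0.50, adjusted p = 0.0046). The same difference was 0.26 for HOXA10 (SE 0.08, 95% interval 0.09 to 0.43) and did not pass, with adjusted p = 0.053. It passed under 4 other settings, among them the removal of dim probe sets (adjusted p = 0.012), and without replicate 2 of the MEF2C and ICN line without dox (adjusted p = 0.025). In that test 7.64% of all probe sets passed. Of 5 Notch response genes (HES1, DTX1, NRARP, NOTCH3 and HEY1), 3 rose on ICN induction and 3 on joint induction. Their median log2 fold changes were 0.40 and 1.57. Between the 2 effects, 1 of the 5 was higher and 1 lower on joint induction, and 3 did not pass. HEY1 had its highest condition mean, 11.98, in the ICN line with dox. The part of the Notch response of each line in the HOXA9 and HOXA10 differences was not tested. Set against MEF2C induction in medium, the effect in the MEF2C and ICN line differed by 0.06 for HOXA9 and -0.06 for HOXA10 (7.90% of all probe sets passed, neither gene did).

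**Figure D2:**
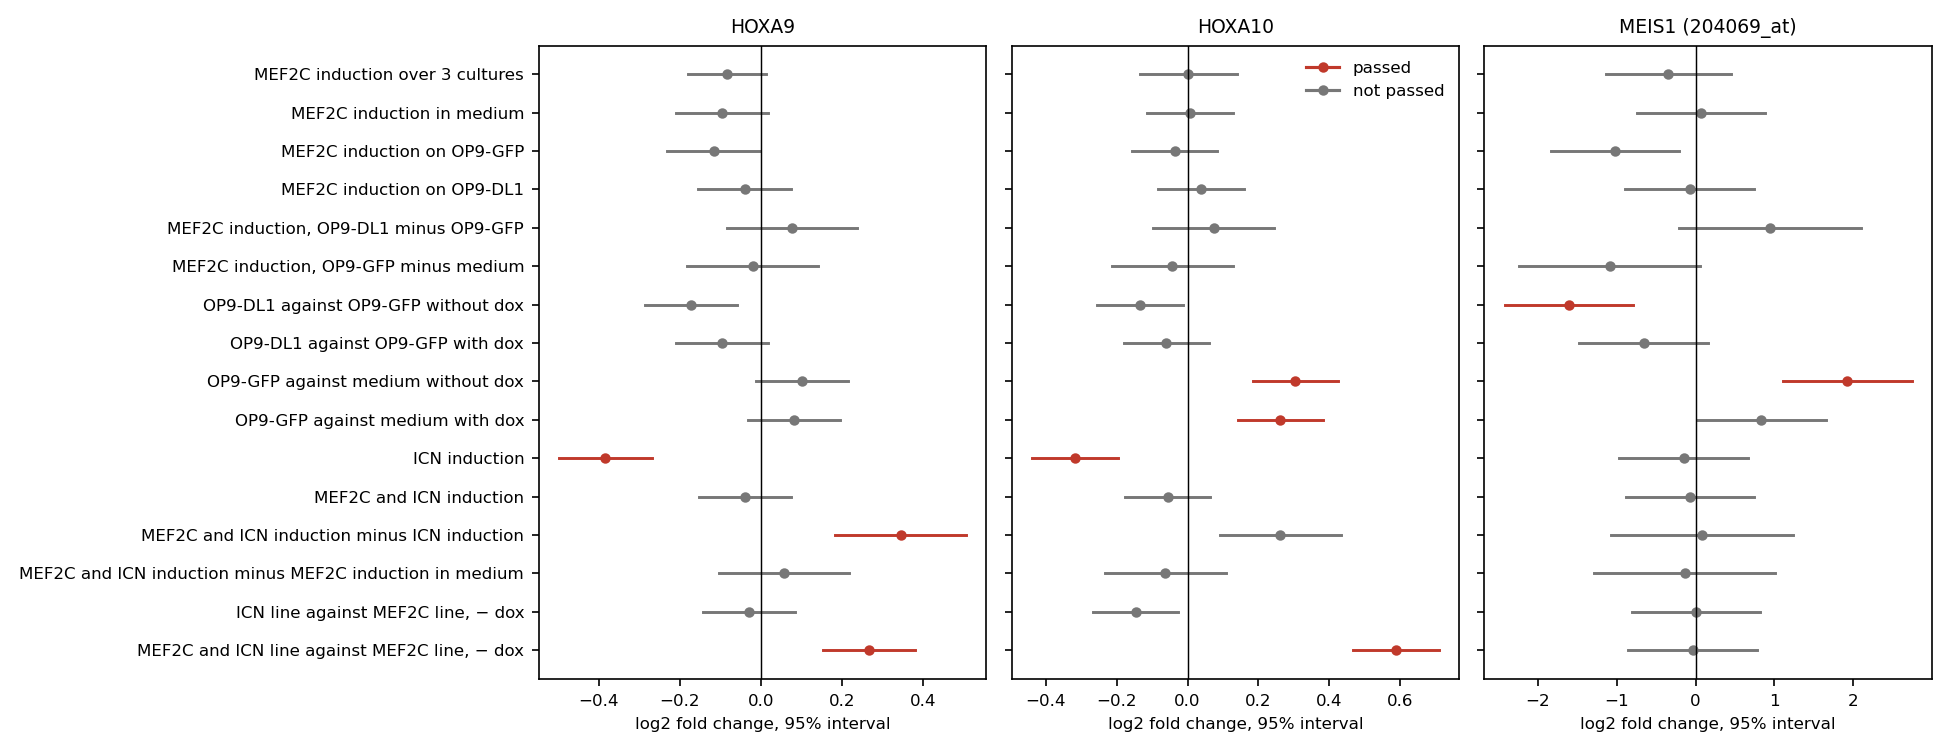
log2 fold change of HOXA9, HOXA10 and MEIS1 in 16 comparisons, with 95% intervals from limma. Red marks adjusted p below 0.05. The ICN induction interval lies below 0 for both HOXA genes, and the interval for joint induction spans 0. The horizontal scales of the panels differ.

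The arrays of the lines differed before induction. Without dox, HOXA10 averaged 10.84 ± 0.08 in the MEF2C and ICN line and 10.25 ± 0.03 in the MEF2C-BFP line (SD, n = 3 each). The difference was 0.59 (SE 0.06, adjusted p = 3e-08), with all 3 arrays of the MEF2C and ICN line higher. HOXA9 averaged 11.33 ± 0.05 in the MEF2C and ICN line and 11.06 ± 0.03 in the MEF2C-BFP line, a difference of 0.27 (SE 0.06, adjusted p = 8e-04). MEIS1 was at 2.69 ± 0.15 in the MEF2C and ICN line and at 2.72 ± 0.18 in the MEF2C-BFP line. Here 20.2% of all probe sets passed. Without dox, the ICN line was close to the MEF2C-BFP line for HOXA9 (-0.03, 95% interval -0.14 to 0.08) and lower for HOXA10 by a log2 change of -0.15 that did not pass (adjusted p = 0.078, but 0.022 to 0.039 under 3 other settings), while 21.4% of all probe sets passed. HES1, a Notch target, was higher without dox by 4.61 in the ICN line and by 3.75 in the MEF2C and ICN line, each against the MEF2C-BFP line. Of the 5 Notch response genes, 3 were higher in the ICN line (median log2 difference 1.55) and 2 did not pass. In the MEF2C and ICN line 2 were higher (median 0.23) and 3 did not pass. The line, this uninduced Notch signal and any batch of the arrays cannot be told apart. The labels give a single line per construct and name no batch. The HOXA9 difference between the MEF2C and ICN line and the MEF2C-BFP line was at adjusted p = 0.05 and no longer passed when only those 2 groups entered the fit.

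On induction of MEF2C alone, no member passed the test. Over the 3 cultures, HOXA9 had a lowest, median and highest value of 10.90, 11.00 and 11.06 in 9 arrays with dox, against 10.95, 11.05 and 11.27 in 9 without. The log2 fold change was -0.08 (95% interval -0.18 to 0.01, adjusted p = 0.40). All 9 arrays with dox lay below the mean without dox of their own culture. HOXA10 was at 10.22, 10.45 and 10.56 with dox and 10.22, 10.42 and 10.62 without dox, a log2 fold change of 0.00 (95% interval -0.13 to 0.14). For MEIS1 the log2 fold change was -0.35 (95% interval -1.13 to 0.44). In this comparison 5.41% of all probe sets passed. On OP9-GFP alone MEIS1 was at 3.26, 3.54 and 4.07 with dox, against 3.22, 4.44 and 6.29 without dox, and the log2 fold change of -1.03 did not pass (adjusted p = 0.14). This value turned on single arrays without dox: leaving out the highest gave -0.20 (adjusted p = 0.73), and leaving out the lowest gave -1.74, which passed (adjusted p = 5.9e-04). Within single cultures, the HOXA9 change was -0.10 in medium, -0.12 with OP9-GFP and -0.04 with OP9-DL1, and that of HOXA10 lay between -0.04 and 0.04. The percentages of all probe sets that passed were 6.32, 6.19 and 4.33 in those cultures. The effect on OP9-DL1 minus that on OP9-GFP (0.148% passed) and the effect on OP9-GFP minus that in medium (0.342%) passed for no member, although without that lowest array the second of these passed for MEIS1 at -1.81 (adjusted p = 0.049). As a check of the induction, the 3 MEF2C probe sets annotated here changed by -1.06, -1.07 and 0.79 with dox over the cultures, and all passed. The MEF2C construct was codon-optimised. By the study's description, a single MEF2C probe set also covers the cloned cDNA, and 3 others lie outside it and read the endogenous gene. Not all of these are among the probe sets annotated here. Which of the probe sets here that is was not tested.

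HOXA10 rose in coculture on OP9-GFP. Without dox, HOXA10 was at 10.52, 10.62 and 10.53 on OP9-GFP, against 10.28, 10.26 and 10.22 in medium, a log2 fold change of 0.30 (SE 0.06, adjusted p = 4.1e-04). With dox it was at 10.53, 10.56 and 10.48 on OP9-GFP, against 10.22, 10.25 and 10.30 in medium, a log2 fold change of 0.26 (SE 0.06, adjusted p = 0.0019). No array overlapped in either comparison. With only the compared groups in the fit, the call without dox was lost (adjusted p = 0.11). HOXA9 changed by 0.10 and 0.08 in the same comparisons, with intervals of -0.01 to 0.22 and -0.03 to 0.19, and did not pass. Coculture was a broad contrast, since 18.0% of all probe sets passed without dox and 18.1% with dox. On OP9-DL1 relative to OP9-GFP, HOXA10 changed by -0.13 without dox and -0.06 with dox and HOXA9 by -0.17 and -0.10, and none passed. The HOXA9 value without dox passed under 3 other settings (adjusted p = 0.018 to 0.047).

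MEIS1 rose on OP9-GFP without dox, in an uneven way. It was at 3.22, 4.44 and 6.29 on OP9-GFP, against 2.59, 2.93 and 2.65 in medium. The groups did not overlap, but the spread on OP9-GFP (SD 1.55) was far above that in medium (SD 0.18). The log2 fold change was 1.93 (SE 0.40, adjusted p = 8.2e-04). This SE comes from the spread shared by all 10 conditions (pooled SD 0.53), which is below that of the OP9-GFP arrays without dox. The values in medium lay far below the array medians of 4.76 to 4.84, where background limits how low a value can be, so this fold change and those below for MEIS1 do not measure its full size. No detection call was used here. Without the highest array it was 1.10, and it still passed. With only the compared groups in the fit it did not (adjusted p = 0.093). The dimmer MEIS1 probe set was at 2.89, 2.84 and 2.97 on OP9-GFP, against 2.56, 2.74 and 2.79 in medium, and did not pass (adjusted p = 0.38). With dox, MEIS1 was at 3.26, 3.54 and 4.07 on OP9-GFP, against 2.82, 2.86 and 2.69 in medium, and did not pass (adjusted p = 0.17, but 0.019 with only the compared groups in the fit), whereas the dimmer probe set did (0.47, adjusted p = 0.017). MEIS1 was lower on OP9-DL1 than on OP9-GFP without dox by a log2 change of -1.61 (adjusted p = 0.037), with 3.05, 2.72 and 3.36 on OP9-DL1. The dimmer probe set was at 2.40, 2.30 and 2.52 on OP9-DL1 without dox, below all its values on OP9-GFP without dox. In that comparison 1.37% of all probe sets passed. With dox the change was -0.66 and did not pass, where 1.23% did. The call without dox rests on few arrays, since it was lost when any of 5 of the 6 arrays was left out. It was also lost with a trended robust variance (adjusted p = 0.063) and with only the compared groups in the fit (adjusted p = 0.64). Without the highest OP9-GFP array the log2 change was -0.78.

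**Figure D3:**
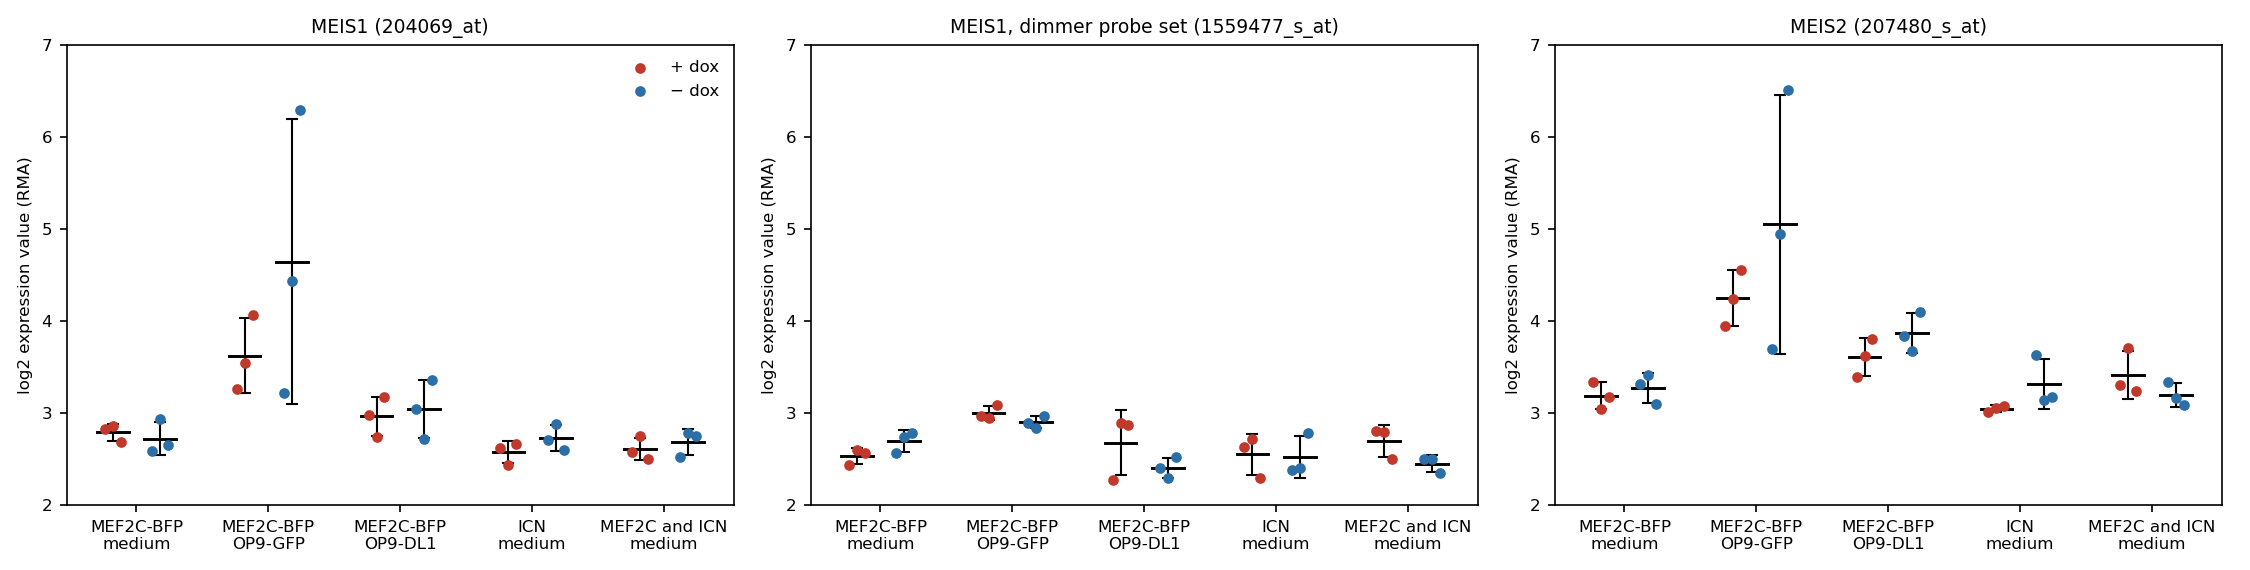
log2 expression of MEIS1 by its brighter probe set (left), by its dimmer probe set (middle) and of MEIS2 (right) on each of 30 arrays, with dox left of without dox. Bars are the mean and SD of 3 arrays. On OP9-GFP without dox, the brighter MEIS1 probe set and MEIS2 spread over several log2 units, and the dimmer MEIS1 probe set does not.

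Other genes moved with MEIS1 on OP9-GFP. MEIS2, its paralog, was at 3.69, 4.95 and 6.51 on OP9-GFP without dox, in the same array order as MEIS1, against 3.31, 3.42 and 3.10 in medium. COL1A2, a collagen made by stromal cells, was at 4.80, 4.88 and 5.94 on OP9-GFP without dox, again highest on the array where MEIS1 was highest, against 4.63, 4.40 and 4.19 in medium. Of a list of 12 stromal genes, COL1A2 and COL6A3 rose on OP9-GFP without dox, SPARC and DCN fell, and 8 did not pass. The list's mean lay between 4.75 and 4.82 on OP9-GFP and between 4.62 and 4.81 in medium. LUM was between 1.95 and 2.29 on OP9-GFP and between 2.02 and 2.24 in medium. These probe sets are for human genes, and how far they read mouse transcripts is not known here. The part of mouse RNA from OP9 cells in the MEIS1 values was not tested. In these bulk samples, a change in the mix of cells and a change of RNA per cell cannot be told apart, for any member.

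HOXA9 and HOXA10 had similar condition profiles. Pearson's r over the 10 condition means was 0.90 between HOXA9 and HOXA10, 0.18 between HOXA9 and MEIS1 and 0.25 between HOXA10 and MEIS1. These are descriptions over 10 points from shared lines. The highest HOXA9 mean was in the MEF2C and ICN line without dox, followed by the same line with dox, and the 2 overlapped. The lowest was in the ICN line with dox, 0.30 below the next group and apart from it. HOXA10 ran in the same order at both ends, and its ICN line with dox stood 0.32 below the ICN line without dox. Among 11332 genes with a mean of at least 5, those most like HOXA9 were HOXA10, SSBP2 (r = 0.90) and SMAD1 (0.89). Those most like HOXA10 were CHST10 (0.97), PKIG and SMAD1 (both 0.96). Those most like MEIS1 were ATP6V0D2 (0.97), SLC25A4 (0.97) and CITED2 (0.95). The MEIS1 profile rests mostly on OP9-GFP without dox, with a mean of 4.65 that includes an array at 6.29. The next highest condition mean was 3.62, so these correlations largely reflect that 1 condition.

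**Figure D4:**
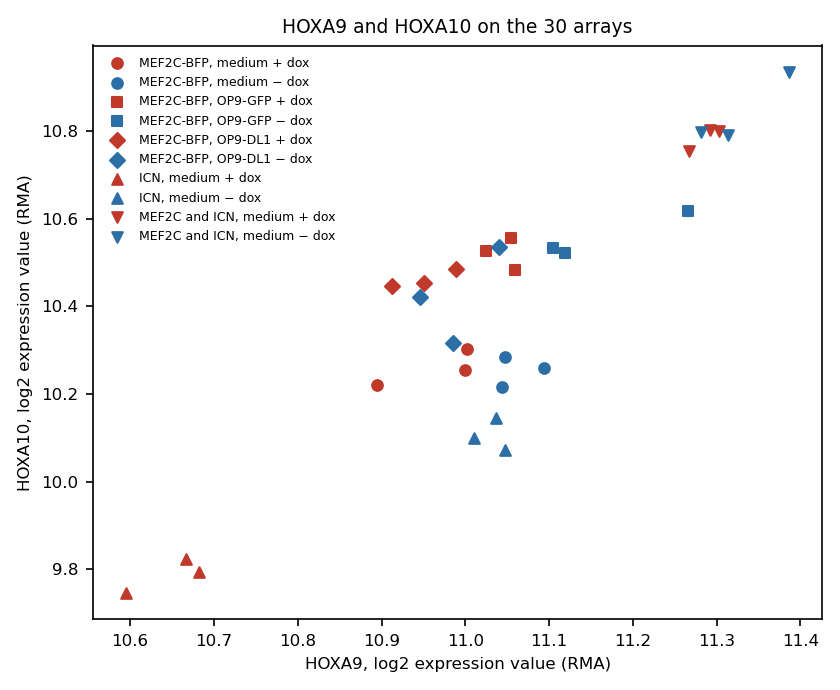
HOXA10 against HOXA9, log2 expression, on the 30 arrays, coloured by dox and shaped by line and culture. The 3 arrays of the ICN line with dox lie apart at the low end of both axes, and the 6 arrays of the MEF2C and ICN line at the high end.

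The rest of the cluster was measured in part. The other HOXA cluster transcripts with a probe set of 1 symbol were HOXA2, HOXA-AS2, HOXA-AS3, HOXA11-AS and HOTTIP. Of these 5, 1 fell and 4 did not pass on ICN induction, where 12.4% of all probe sets passed. The same counts held on joint induction, where 13.3% did. By the brighter probe set of each, 0 of the 5 passed on MEF2C induction over the 3 cultures, where 5.41% did. HOXA10-AS, whose probe set also lists MIR196B, is not in these counts. In the MEF2C-BFP line it averaged 5.30 ± 0.14 with dox and 5.09 ± 0.22 without dox (SD, n = 9 each). With dox, 1 of 9 arrays lay below the mean without dox of its own culture. Its lowest condition mean, 4.82, was in the ICN line with dox. HOXA11-AS, an antisense RNA of the cluster, was the one that fell on ICN induction, by -0.45 (adjusted p = 0.0018), and with joint induction it fell by -0.62 (adjusted p = 2.9e-05). Its values were 7.02, 7.09 and 6.82 in the MEF2C and ICN line with dox, against 7.56, 7.49 and 7.73 without dox. The induction effects on HOXA11-AS in the 2 lines differed by -0.17 (adjusted p = 0.55). Its second probe set fell by -0.69 on ICN induction and by -0.72 on joint induction.

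HOXA11-AS was also lower on MEF2C induction alone, by one of its probe sets. Over the 3 cultures the second probe set had a lowest, median and highest value of 5.66, 5.81 and 6.11 in 9 arrays with dox, against 5.83, 6.21 and 6.30 in 9 without. It fell by -0.33 (adjusted p = 0.0045), and on OP9-DL1 alone by -0.43 (adjusted p = 0.028), where 4.33% of all probe sets passed. The first of these calls was lost without the replicates numbered 3 (adjusted p = 0.13) or without the OP9-DL1 arrays (0.14), and the second when any of 5 of the 6 arrays was left out. The brighter probe set had a log2 fold change of -0.20 over the cultures and did not pass (adjusted p = 0.075). For both probe sets, all 9 arrays with dox lay below the mean without dox of their own culture. HOXA2, an anterior member of the cluster, rose on OP9-GFP by 0.61 without dox and 0.65 with dox (adjusted p = 0.0013 and 7.1e-04), comparisons in which 18.0% and 18.1% of all probe sets passed.

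Partners, regulators and targets of the members are read against the share of all probe sets that passed, which was 12.4% on ICN induction, 13.3% on joint induction and 5.41% on MEF2C induction over the 3 cultures. Of 7 other TALE genes, 0 passed on ICN induction and on MEF2C induction, and 1 rose on joint induction, PBX3, a DNA-binding partner of HOXA9 (0.49, adjusted p = 1.3e-05). Of 16 activators of HOXA transcription, 2 rose and 1 fell on ICN induction: DOT1L, the H3K79 methyltransferase (0.88, adjusted p = 1e-05), and KMT2A rose and MLLT3 fell. On MEF2C induction 1 of the 16 rose, AFF1 (0.53, adjusted p = 1.3e-07). Of 10 Polycomb genes, 1 rose and 2 fell on ICN induction, JARID2 most (-0.88, adjusted p = 1.2e-10), and 0 passed on MEF2C induction. Of 27 HOXB, HOXC and HOXD genes, 2 rose and 1 fell on ICN induction, a share near that of all probe sets. On joint induction 1 of the 27 rose and 6 fell, HOXC4 most (-0.68, adjusted p = 2.5e-05), and on MEF2C induction 3 fell.

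Of 12 genes described as targets of HOXA9 and MEIS1 in leukemia, 2 rose and 5 fell on ICN induction, led by BCL2 (-1.59, adjusted p = 4.4e-15) and LMO2 (-0.82). The list's median log2 fold change was -0.17 against -0.01 over all probe sets. On joint induction 2 of the 12 rose and 3 fell. On MEF2C induction over the 3 cultures, where no member passed, 4 of the 12 rose and 1 fell, with a median log2 fold change of -0.11 against -0.01 over all probe sets. TRIB2 rose by 0.82 (adjusted p = 9.3e-05), SOX4 by 0.29 and MYB by 0.20, and PIM1 fell by -0.39 (adjusted p = 0.0094). BCL2, an inhibitor of apoptosis, averaged 10.79 ± 0.31 with dox and 10.06 ± 0.29 without dox (SD, n = 9 each), a log2 fold change of 0.73 (adjusted p = 0.001).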

How the data were processed

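Expression was read on 30 Affymetrix HG U133 Plus 2.0 arrays, in 10 conditions of 3 arrays that the labels define. The deposited table holds log2 values computed by the authors with RMA, which subtracts background, equalises the arrays' distributions and summarises each probe set. The tools credited in the submitters' processing notes are affy 1.64.0 under R 3.6.3. RMA evens out overall brightness, and dim probe sets carry background that shrinks their fold changes. Arrays carry no counts, and the number of replicates limits the precision. The 62 control probe sets were left out. Names came from the platform annotation, where only MEIS1 was listed, and, for HOXA9 and HOXA10, from the study's own probe set annotation. Values were not taken from that annotation. limma 3.58.1 in R 4.3.3 gave moderated tests, with Benjamini-Hochberg adjustment over 54613 probe sets and a threshold of 0.05. MEF2C induction over 3 cultures was fitted on 9 against 9 arrays, without a culture term, and the other comparisons in a model of all 10 conditions. In that model the conditions share 1 estimate of the spread per probe set. The scripts were tested on simulated data. The members and lists were chosen with earlier results of these data known. The genes named are every measured member, the 3 genes most correlated with each over the condition means, and up to 4 of each list with the largest change past the threshold. Alternatives were a filter on dim probe sets (mean of at least 5), quantile normalization, median centring, trended robust variance, control probe sets kept, the mean of a gene's probe sets, probe sets of 1 symbol only, the criteria of the methods, only the groups compared, a replicate block and leaving out arrays or cultures. For the 9 against 9 arrays a culture term and the methods' t-test were also run. Background correction could not be changed from these values.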

Additional observations from a re-analysis of the deposited data

Results flagged for a closer look

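The induction effect on HOXA9 differed between lines. HOXA9 changed by -0.04 with dox in the MEF2C and ICN line and by -0.38 with dox in the ICN line, and the difference of 0.34 passed limma's test of the difference itself (SE 0.08, adjusted p = 0.0046). Its adjusted p was at most 0.018 with any 1 array left out. The lines also differed in HOXA9 without dox (11.33 ± 0.05 in the MEF2C and ICN line and 11.03 ± 0.02 in the ICN line, SD, n = 3 each), and the part of that starting level in the difference was not tested. The part of the Notch response of each line was not tested either.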

How the results depend on the processing

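Of 54 recomputed fold changes, those of the 3 members in every comparison and of HOXA11-AS where it passed, 11 changed sign under at least 1 setting (22 settings in all). None of these values passed in the analysis reported or under those settings (adjusted p of at least 0.84). With the mean of a gene's probe sets, MEIS1 changed sign for MEF2C induction in medium (-0.048) and on OP9-DL1 (0.10), joint induction (0.088), its difference from MEF2C induction in medium (0.14) and the ICN line against the MEF2C line (-0.083). MEIS1 in the MEF2C and ICN line against the MEF2C line was 0.0052 with quantile normalization. HOXA10 on MEF2C induction over the cultures was -0.015 without the OP9-DL1 arrays and ranged from -0.0093 to 0.023 with a replicate number left out. With single arrays left out, HOXA10 ranged from -0.015 to 0.025 on MEF2C induction in medium and from -0.016 to 0.093 on OP9-DL1, and HOXA9 from -0.056 to 0.031 for OP9-GFP minus medium. MEIS1 ranged from -0.0022 to 0.17 on MEF2C induction in medium, from -0.24 to 0.080 on OP9-DL1, from -0.0043 to 0.14 for joint minus ICN induction, and, against the MEF2C line, from -0.068 to 0.11 in the ICN line and from -0.11 to 0.066 in the MEF2C and ICN line. For MEF2C induction, the number of members called stayed at 0 of 3 over the cultures, in medium and on OP9-DL1 under every alternative run. With arrays left out in turn, the count of members called ranged from 0 to 1 for MEF2C induction on OP9-GFP and for its difference from medium (MEIS1, -1.74 and -1.81, without the lowest array without dox, OP9-GFP replicate 1), from 0 to 1 for OP9-DL1 against OP9-GFP without dox (main count 1), and from 1 to 2 for the difference between joint and ICN induction (main count 1). For that difference the count was 2 with dim probe sets removed, quantile normalization, a trended robust variance or the replicate block, and 0 with the criteria of the methods or with probe sets of 1 symbol only. HOXA10 entered it with adjusted p = 0.0079 to 0.041. For ICN induction (main count 2) it was 0 with the methods' criteria, which ask for a log2 change above 0.6, and 1 with probe sets of 1 symbol, which drops HOXA9. For the MEF2C and ICN line against the MEF2C line (main count 2) it was 0 with the methods' criteria, 1 with only the groups compared and 1 with probe sets of 1 symbol. For the ICN line it was 1 with dim probe sets removed, quantile normalization or trended variance, against 0. For OP9-GFP against medium without dox (main count 2) it was 1 with the methods' criteria, 1 with dim probe sets removed, which drops MEIS1, and 0 with only the groups compared (HOXA10 adjusted p = 0.11, MEIS1 0.093). With dox (main count 1) it was 0 with the methods' criteria and 2 with the mean of the probe sets or only the groups compared. For OP9-DL1 against OP9-GFP without dox it was 0 with only the groups compared and 2 with quantile normalization. Same-numbered arrays of compared groups had deviations correlating between -0.14 and 0.19, with 7 of 33 pairs over 0.1. These correlations run over all probe sets, so they cannot settle whether the numbers pair the arrays for a given gene. MEIS1 on OP9-GFP rose with the replicate number without dox (3.22, 4.44 and 6.29) and with dox (3.26, 3.54 and 4.07). The replicate block changed no other count. The number of arrays limits every comparison.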
